A study of Homo sapiens with 12 samples.

Results

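The genes described here are NFE2L2, which encodes the transcription factor NRF2, its inhibitor KEAP1, 6 of its best known antioxidant targets (NQO1, HMOX1, GCLC, GCLM, TXNRD1 and SRXN1) and the superoxide dismutases SOD1 and SOD2. They were taken by symbol from a fixed list of 10, and 9 of them were matched to an identifier among the 62069 gene identifiers of the count table. SRXN1 was not analysed here. All 9 matched genes passed the filter on low counts, as did 13248 identifiers in all.

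RNA-seq was done on IMR90 ER:RAS cells, an established line of fibroblasts from human fetal lung carrying a fusion of oncogenic RAS and oestrogen receptor. In these cells 4-hydroxytamoxifen (4OHT) switches the RAS protein on, and the cells then enter senescence, a lasting arrest of division. The 3 groups of 4 libraries were the solvent control DMSO (libraries 17 to 20, named non-senescent by the series), 4OHT at 100 nM (libraries 21 to 24, named senescent) and 4OHT with 3-deazaadenosine, 3DA (libraries 29 to 32). 3DA is an adenosine analogue that inhibits S-adenosylhomocysteine hydrolase. Every group carried ER:RAS and was at passage 15 and day 6. No group lacking ER:RAS received 4OHT, so effects of 4OHT itself and of RAS cannot be told apart. None received 3DA alone, so an effect of 3DA itself cannot be told from one that depends on 4OHT or RAS. The dose of 3DA is not given in the sources used here.

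NRF2 is held in the cytoplasm by KEAP1, which hands it to a CUL3 ubiquitin ligase for breakdown. Oxidants and electrophiles modify KEAP1, NRF2 then reaches the nucleus, pairs with a small MAF protein and binds antioxidant response elements (AREs) near its targets. Much of this control acts on the protein, so the mRNA of NFE2L2 need not follow the activity of NRF2. SOD1 and SOD2 turn superoxide into hydrogen peroxide in the cytosol and in mitochondria, and SOD2 is best known as a target of the inflammatory factor NF-kB.

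The ARE core, TGACNNNGC, was searched on both strands of the RefSeq promoter windows (GRCh38.p14, 250 bases before to 50 after the start of transcription). It was found in 4 of the 14 windows of the listed genes, which belong to TXNRD1, GCLM and KEAP1, and in 13.3% of all 35116 windows. The table held windows for 8 of the 10 listed genes, SRXN1 included, and HMOX1 and SOD1 had no entry. The motif TGANTCA of the factor AP-1, which can overlap an ARE core, was in 7.71% of all windows, the kappaB motif of NF-kB was in 6.90%, and neither was in the 14 windows. A match is a description of the letters and not a sign of binding, and a window without one says nothing of the factor. These 3 windows are shown because they hold letters that match the ARE core. Each gives the 250 bases upstream and the first 10 transcribed bases, 5′ to 3′ on the gene's strand, with ARE core matches in capitals. TXNRD1 (plus strand) lies at chr12:104215529-104215788, GCLM (minus strand) at chr1:93909421-93909680 and KEAP1 (minus strand) at chr19:10502762-10503021.
TXNRD1: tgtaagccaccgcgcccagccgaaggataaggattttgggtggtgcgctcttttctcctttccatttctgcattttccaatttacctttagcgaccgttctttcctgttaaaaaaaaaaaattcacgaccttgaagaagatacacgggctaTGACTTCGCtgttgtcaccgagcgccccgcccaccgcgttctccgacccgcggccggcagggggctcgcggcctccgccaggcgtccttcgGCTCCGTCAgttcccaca
GCLM: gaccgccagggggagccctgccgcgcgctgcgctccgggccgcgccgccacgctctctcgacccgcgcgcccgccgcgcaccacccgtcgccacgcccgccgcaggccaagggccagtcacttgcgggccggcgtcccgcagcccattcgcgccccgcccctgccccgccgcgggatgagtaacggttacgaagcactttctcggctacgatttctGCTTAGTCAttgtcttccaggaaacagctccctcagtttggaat
KEAP1: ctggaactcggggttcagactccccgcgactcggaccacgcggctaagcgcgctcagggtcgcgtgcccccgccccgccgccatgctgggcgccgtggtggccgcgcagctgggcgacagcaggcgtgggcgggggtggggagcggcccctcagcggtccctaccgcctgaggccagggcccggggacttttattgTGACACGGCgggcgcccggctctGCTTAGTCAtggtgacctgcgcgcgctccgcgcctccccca
Counted from the start of transcription, the matches begin at −99 and −8 for TXNRD1, −34 for GCLM and −54 and −31 for KEAP1. GCLM and KEAP1 share the same match, GCTTAGTCA. A second TXNRD1 window, for a start further downstream, held 1 match, GCTTTGTCA, at −102.

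Total reads per library ran from 9451160 to 19291493, at 9451160 to 13101016 for DMSO, 10973618 to 15596086 for 4OHT and 14306171 to 19291493 for 4OHT+3DA; its part in the results was not tested. Library 31 of 4OHT+3DA stood apart from its replicates (median chi-square per degree of freedom of 42.4 against them, where the other 11 libraries had 3.43 to 15.6). All 10 fibroblast markers were detected, with summed CPM (reads of a gene scaled to a common library size) of 10592 to 11559 with DMSO, 5709 to 6319 with 4OHT and 5025 to 5251 with 4OHT+3DA. Single fibroblast markers moved both ways, with log2 fold changes of −2.70 to 0.54 with 4OHT and −0.93 to 0.90 on adding 3DA. Of 10 epithelial markers 5 were tested. The sums over all 10 were 124 to 148, 55.5 to 60.1 and 42.1 to 54.0 CPM, and SFTPC had no read. Of 10 endothelial markers 4 were tested. The sums over all 10 were 8.0 to 11.4, 23.7 to 29.4 and 10.1 to 14.3 CPM, and PECAM1 and CDH5 had no read. Of 10 immune markers 2 were tested. The sums over all 10 were 0.734 to 2.33, 4.16 to 4.97 and 2.94 to 4.75 CPM, and CD3E and ITGAM had no read. The part of these markers in the results was not tested. Values below are CPM by effective library size, as mean ± SD of 4 libraries. In bulk RNA, fewer cells with a transcript and less of it per cell cannot be told apart.

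With 4OHT against DMSO, HMOX1, NQO1, TXNRD1 and KEAP1 rose, and NFE2L2, GCLC, GCLM, SOD1 and SOD2 did not pass the test. HMOX1 changed most, by 3.95-fold, and NQO1 by 1.46-fold. The 4 calls of 9 stand beside 26.5% of all tested genes called higher and 25.5% called lower (52.0% in either direction), by edgeR with a quasi-likelihood fit at a false discovery rate of 0.05. Groups did not overlap, with 4OHT higher, for 5 of the 9, against 26.3% of all genes, while 25.1% of all genes had 4OHT lower without overlap (51.5% in either direction). The median log2 fold change of the 9 genes was 0.32, and that of all genes −0.011. Scaled by library totals in place of TMM factors, 2385 genes were called higher and 4727 lower, where TMM gave 3511 and 3378.

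The effect of adding 3DA was read from 4OHT+3DA against 4OHT, both with RAS switched on. NQO1, HMOX1, SOD2 and TXNRD1 fell, to 0.569, 0.579, 0.627 and 0.777 of their 4OHT level, and the other 5 did not pass the test. The 4 calls of 9 stand beside 12.4% of all genes called lower and 14.4% called higher (26.9% in either direction). The same 4 genes had no overlap between the groups, against 12.2% of all genes lower and 12.8% higher with no overlap (25.0% in either direction). The median log2 fold change of the 9 genes was −0.15, and that of all genes 0.0051. By library totals 2535 genes were called higher and 1207 lower, where TMM gave 1909 and 1649.

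Between 4OHT+3DA and DMSO all 9 genes were called: HMOX1, GCLC, GCLM, NFE2L2, TXNRD1 and KEAP1 were higher and SOD2, SOD1 and NQO1 lower. Of all genes, 27.0% were called higher and 24.6% lower (51.5% in either direction). Groups did not overlap for 6 higher and 2 lower genes of the 9, against 22.8% and 21.9% of all genes (44.7% in either direction). By library totals 2798 genes were called higher and 4035 lower, where TMM gave 3572 and 3253. Each pair of these 3 comparisons shares 1 group of libraries, so they are not independent.

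**Figure D1:**
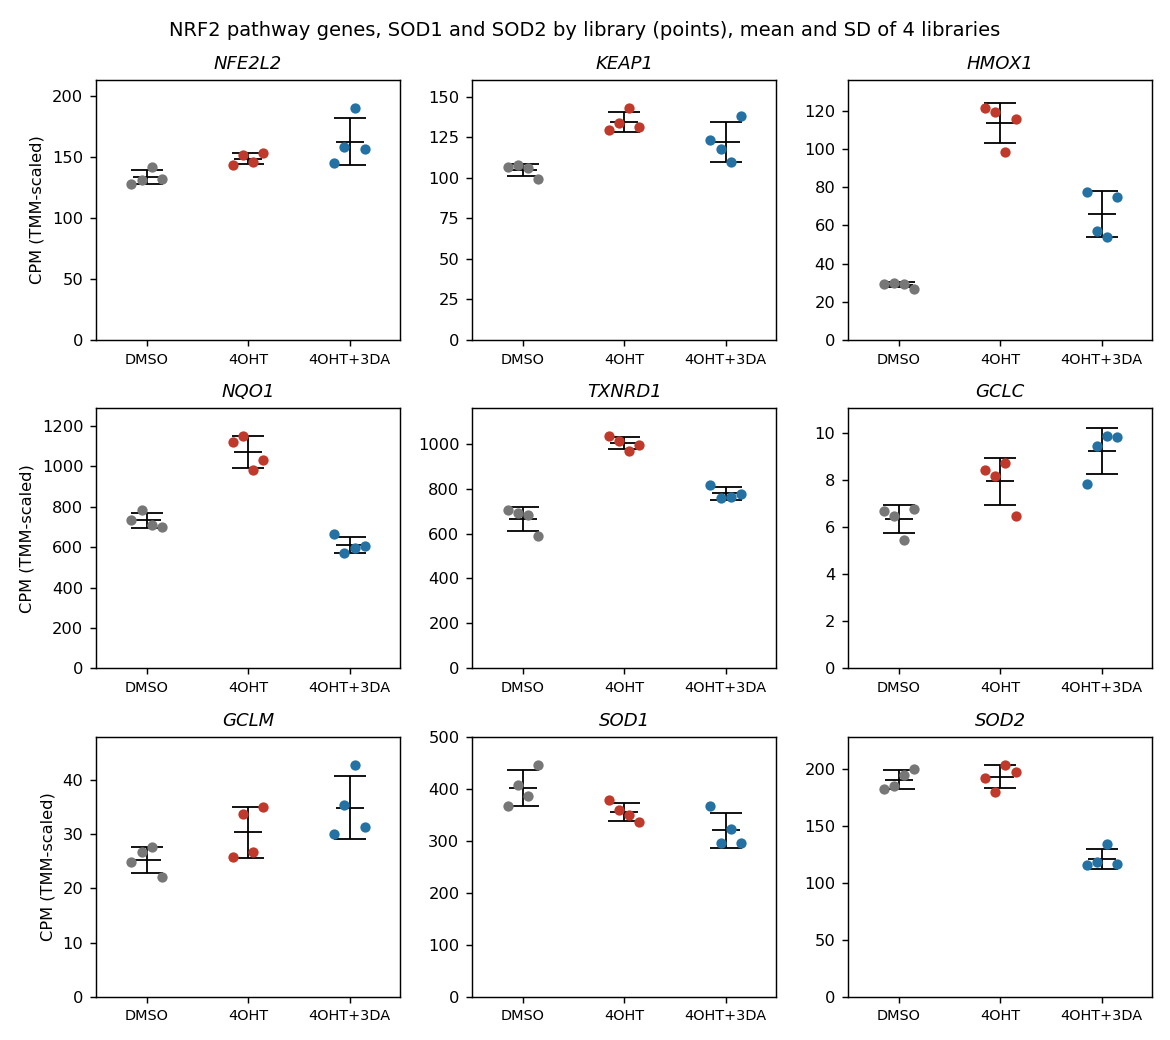
CPM (linear axis from 0) of the 9 genes in each of the 12 libraries, with the mean and SD of each group of 4 as bars. HMOX1, NQO1 and TXNRD1 peak with 4OHT, SOD2 is level in DMSO and 4OHT and lower in all 4 libraries with 3DA, and NFE2L2, GCLC and GCLM are highest on average with 3DA.

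The regulators moved little. NFE2L2 (ENSG00000116044) stood at 128, 131, 141 and 132 CPM in DMSO libraries 17 to 20, at 143, 151, 146 and 153 CPM in 4OHT libraries 21 to 24 and at 145, 158, 190.3 and 156 CPM in 4OHT+3DA libraries 29 to 32. All 4OHT libraries lay above all DMSO libraries, by a small step, and library 31 was the highest of the 12. Its log2 fold change was 0.16 (SE 0.078; edgeR adjusted p = 0.0975) for 4OHT against DMSO, 0.13 (SE 0.077; adjusted p = 0.227) for 4OHT+3DA against 4OHT and 0.29 (SE 0.077; adjusted p = 0.00428) for 4OHT+3DA against DMSO. Without library 31 the last of these was 0.21 and still called. NFE2L2 shares 1054 exon bases, 17.6% of its own, with AC019080.1 on the same strand in GENCODE 29 (GRCh38). That gene had 29, 8 and 26 reads in all DMSO, 4OHT and 4OHT+3DA libraries. On the opposite strand NFE2L2 shares 190 exon bases (3.18%) with AC079305.1, which had 2, 2 and 1 reads. With AGPS, also on the opposite strand, NFE2L2 shares 54 exon bases (0.903%), and the library kit does not mark strand. AGPS had log2 fold changes of 0.40, 0.36 and 0.76 in these comparisons, all called (edgeR adjusted p = 0.0166, 0.0442 and 7.68e-05) and of the same sign as those of NFE2L2. The first of these calls ended without DMSO library 20 (0.31) or 4OHT library 24 (0.28) and with library totals (0.24). The call on adding 3DA ended without library 31 (0.28) and without 8 of the other 11 libraries (0.30 to 0.37). The part of these overlapping genes in the counts of NFE2L2 was not tested.

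KEAP1 (ENSG00000079999), which restrains NRF2, was at 106, 108, 106 and 99.5 CPM with DMSO, at 129, 134, 143 and 131 CPM with 4OHT and at 123, 118, 109 and 138 CPM with 4OHT+3DA. The 4OHT and the 4OHT+3DA libraries all lay above the DMSO libraries, and they overlapped each other. It rose by a log2 fold change of 0.36 with 4OHT (SE 0.075; edgeR adjusted p = 5.39e-04). With 4OHT+3DA it was 0.22 above DMSO (SE 0.075; adjusted p = 0.0203), a call that ended without DMSO library 20 (0.19), without 4OHT+3DA library 32 (0.16), in a fit of the 8 libraries compared (0.20) and with library totals in place of TMM scaling factors (0.12). Against 4OHT it was not called (−0.14, SE 0.074; adjusted p = 0.178), but it was without 4OHT+3DA library 32 (−0.20). NFE2L2 and KEAP1 were thus both higher than in the DMSO group when 4OHT and 3DA were combined.

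HMOX1 (ENSG00000100292) encodes haem oxygenase 1, which opens haem to biliverdin, iron and carbon monoxide. It was at 29.4, 29.9, 29.1 and 26.9 CPM with DMSO, at 122, 119, 98.5 and 116 CPM with 4OHT and at 77.4, 57.3, 54.1 and 75.0 CPM with 4OHT+3DA. The 3 groups did not overlap, and those with 3DA lay between the others. The log2 fold change was 1.98 for 4OHT against DMSO (SE 0.11; edgeR adjusted p = 2.04e-11), −0.79 for 4OHT+3DA against 4OHT (SE 0.11; adjusted p = 2.23e-05) and 1.19 for 4OHT+3DA against DMSO (SE 0.11; adjusted p = 4.00e-08).

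NQO1 (ENSG00000181019), a quinone reductase often used as a readout of NRF2, was at 733, 786, 710.1 and 700.4 CPM with DMSO. With 4OHT it was at 1119.9, 1150.0, 983 and 1032 CPM, and with 4OHT+3DA at 665, 571, 596 and 605 CPM. The 3 groups were again separate, but here the libraries with 3DA were the lowest. NQO1 rose by a log2 fold change of 0.55 with 4OHT (SE 0.067; edgeR adjusted p = 1.24e-06), fell by 0.81 on the log2 scale when 3DA was added (SE 0.068; adjusted p = 5.75e-08) and ended below DMSO by a log2 fold change of −0.27 (SE 0.067; adjusted p = 0.00273).

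TXNRD1 (ENSG00000198431) encodes the cytosolic thioredoxin reductase, which keeps thioredoxin reduced. It was at 703, 692, 683 and 588 CPM with DMSO, at 1034, 1013, 969 and 993 CPM with 4OHT and at 817, 757, 764 and 776 CPM with 4OHT+3DA. As for HMOX1, the libraries with 3DA lay between the 2 other groups without overlap. The log2 fold changes were 0.59 (SE 0.063; edgeR adjusted p = 2.00e-07), −0.36 (SE 0.063; adjusted p = 3.10e-04) and, against DMSO, 0.22 (SE 0.063; adjusted p = 0.00562). The last call ended with library totals (0.13).

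GCLC (ENSG00000001084) and GCLM (ENSG00000023909) encode the catalytic and the modifier subunit of glutamate-cysteine ligase, the rate-limiting enzyme of glutathione synthesis. Both behaved unlike HMOX1, NQO1 and TXNRD1, in that their means were highest with 4OHT+3DA. GCLC, which had only 59 to 183 reads per library, was at 6.66, 6.46, 5.45 and 6.75 CPM with DMSO, at 8.41, 8.14, 8.71 and 6.47 CPM with 4OHT and at 7.80, 9.44, 9.86 and 9.81 CPM with 4OHT+3DA. GCLM was at 24.8, 26.6, 27.5 and 22.1 CPM with DMSO, at 25.8, 33.7, 26.7 and 35.0 CPM with 4OHT and at 29.9, 35.3, 42.8 and 31.3 CPM with 4OHT+3DA. For both, the 4OHT group overlapped each of the other groups, whereas the DMSO and 4OHT+3DA groups did not overlap.

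GCLC had a log2 fold change of 0.32 with 4OHT (SE 0.15; edgeR adjusted p = 0.0819), 0.22 on adding 3DA (SE 0.14; adjusted p = 0.265) and 0.54 between 4OHT+3DA and DMSO (SE 0.15; adjusted p = 0.00434). Those of GCLM were 0.27 (SE 0.13; adjusted p = 0.0907), 0.20 (SE 0.13; adjusted p = 0.252) and 0.47 (SE 0.13; adjusted p = 0.00462). GCLM was highest in library 31, and its difference from DMSO was 0.36 without that library and still called. With 4OHT, GCLC was called without 4OHT library 24 (0.41) and GCLM without 4OHT library 21 (0.33). GCLC shares 7 exon bases with an antisense gene, AL033397.2, that had 4 reads in all DMSO libraries, 190 in all 4OHT libraries and 173 in all 4OHT+3DA libraries, and 529 with AL033397.1 on its own strand, which had 8, 0 and 5 reads.

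SOD1 (ENSG00000142168), the copper-zinc enzyme of the cytosol, was at 366, 407, 386 and 447 CPM with DMSO, at 378, 359, 350.0 and 336 CPM with 4OHT and at 366, 295, 322 and 296 CPM with 4OHT+3DA. Every pair of groups overlapped. The log2 fold change was −0.18 with 4OHT (SE 0.079; edgeR adjusted p = 0.0688), −0.15 on adding 3DA (SE 0.079; adjusted p = 0.162) and −0.33 for 4OHT+3DA against DMSO (SE 0.079; adjusted p = 0.00173), of which the last was called. With 4OHT it was called without DMSO library 17 (−0.22) or 4OHT+3DA library 29 (−0.17) and with library totals (−0.33), and on adding 3DA without library 29 (−0.22).

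SOD2 (ENSG00000112096), the manganese enzyme of mitochondria, was at 182, 185, 195 and 200.2 CPM with DMSO and at 192, 179.8, 204 and 197 CPM with 4OHT. With 4OHT+3DA it was at 115, 118, 134 and 117 CPM. The DMSO and 4OHT libraries covered the same range, and all libraries with 3DA lay below it. The log2 fold change was 0.019 with 4OHT (SE 0.069; edgeR adjusted p = 0.834), −0.67 on adding 3DA (SE 0.069; adjusted p = 8.62e-07) and −0.65 for 4OHT+3DA against DMSO (SE 0.069; adjusted p = 2.05e-07). Without library 31 the last 2 were −0.72 and −0.70. SOD2 shares 845 exon bases, 5.12% of its own, with another gene of that name, ENSG00000285441, on the same strand in GENCODE 29. That identifier is not in the count table. On the opposite strand SOD2 shares 298 exon bases (1.81%) with WTAP. WTAP stood at 93.5 ± 10.2, 79.1 ± 4.67 and 112 ± 40.1 CPM in the DMSO, 4OHT and 4OHT+3DA groups. Its log2 fold change on adding 3DA was 0.50 (SE 0.16; edgeR adjusted p = 0.0272), but library 31 stood at 169 CPM, the other libraries with 3DA at 83.3 to 109 CPM, and the groups overlapped. Without library 31 WTAP was at 0.23 and not called (adjusted p = 0.0713), and the call also ended without 4OHT library 21 (0.49) or 22 (0.47) and in the fit of 8 libraries (0.51).

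The calls lost under other settings were those of KEAP1 and TXNRD1 between 4OHT+3DA and DMSO, given above, and in the 4OHT against DMSO comparison calls were gained. Without library 31, which enters that comparison only through the shared filter, scaling and spread, 7 of the 9 genes were called, with NFE2L2 (0.16) and GCLM (0.27) added as higher and SOD1 (−0.17) as lower. The fit of the 8 libraries alone added the same 3 genes. Calls over all genes rose in these fits too, from 52.0% to 57.0% without library 31 and to 59.5% with the 8 libraries.

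**Figure D2:**
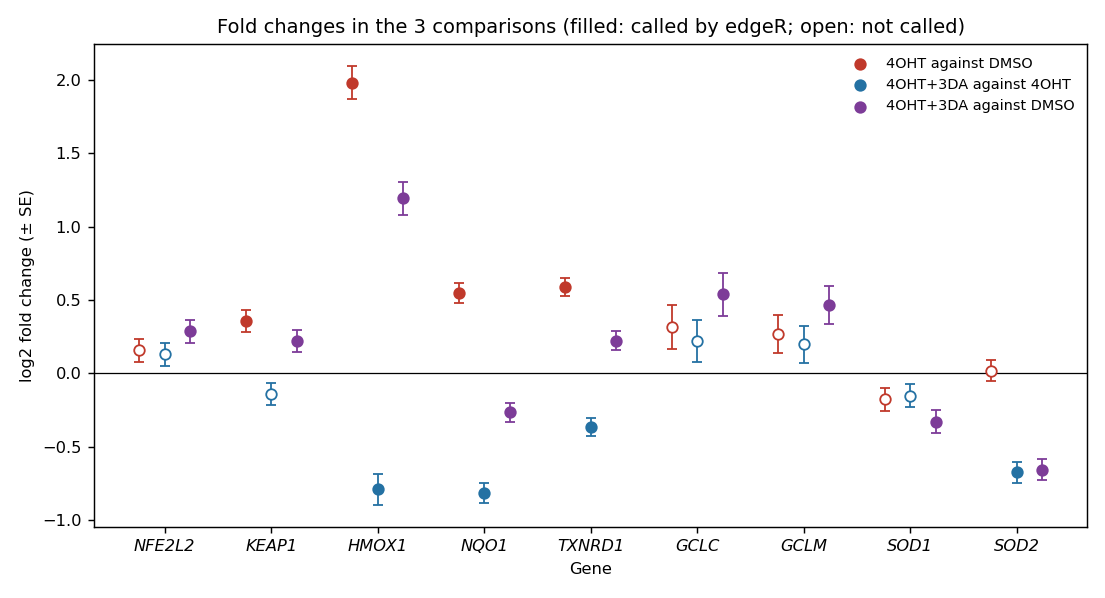
Log2 fold change (points, with bars of 1 SE) of the 9 genes in the 3 comparisons, filled where the edgeR call was made and open where not. HMOX1, NQO1 and TXNRD1 are above 0 for 4OHT against DMSO and below 0 for 4OHT+3DA against 4OHT, while SOD2 is at 0.019 in the first and −0.67 in the second.

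The wider pathway was described with 8 lists holding 151 genes, of which 134 were tested. With 4OHT 51 rose and 30 fell, on adding 3DA 12 rose and 41 fell, and against DMSO the combined treatment had 39 higher and 41 lower (edgeR, adjusted over all genes). As shares of the 134 these were 38.1% and 22.4%, 8.96% and 30.6%, and 29.1% and 30.6%, where 26.5% and 25.5%, 14.4% and 12.4%, and 27.0% and 24.6% of all tested genes were called higher and lower. The median log2 fold changes were 0.099, −0.10 and −0.050, against −0.011, 0.0051 and 0.0086 over all genes. The counts of each list below are to be read against the same shares of all genes.

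Among 19 tested partners and regulators of NRF2, 8 rose and 3 fell with 4OHT (median −0.0013), and 1 rose and 5 fell on adding 3DA (median −0.062). MAFF, a small MAF partner, went from 40.5 ± 2.48 to 79.1 ± 4.19 CPM with 4OHT and to 42.7 ± 3.51 CPM with 4OHT+3DA. MAFG, another partner, had log2 fold changes of 0.64 with 4OHT (called) and −0.17 on adding 3DA (not called). SQSTM1 encodes p62, a selective autophagy receptor that binds KEAP1. It went from 634 ± 12.8 to 1044 ± 23.8 and then 529.8 ± 57.2 CPM, and the 3 groups did not overlap. BACH1, a repressor that competes for AREs, fell with 4OHT by 0.26 on the log2 scale, but the call ended with no filter on low counts (−0.25) and without DMSO library 17 or 19 or any 1 of the 4OHT libraries (−0.27 to −0.20). The largest changes with 4OHT in this list were those of BRCA1 (−1.54) and NFE2L3 (−1.25), an NRF2 relative. These genes had only 21 to 167 and 14 to 104 reads per library.

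Of 16 tested genes of glutathione synthesis, transport and turnover, 7 rose and 3 fell with 4OHT (median 0.28), and 1 rose and 2 fell on adding 3DA (median 0.0044). SLC7A11, the cystine importer, went from 36.4 ± 6.11 CPM to 119 ± 7.96 CPM with 4OHT (log2 fold change 1.71, SE 0.11) and to 87.9 ± 8.80 CPM with 4OHT+3DA (−0.43 against 4OHT, SE 0.10). Its partner chain SLC3A2 went from 166 ± 5.81 to 377 ± 16.8 and 259.9 ± 31.5 CPM. The exporter ABCC3 fell by 1.94 on the log2 scale with 4OHT, and CHAC2, which degrades glutathione, rose on adding 3DA (0.69, SE 0.17). For CHAC2, library 31 stood at 30.8 CPM and the other libraries with 3DA at 17.5 to 21.3 CPM.

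Among 18 tested glutathione peroxidases and transferases, 3 rose and 4 fell with 4OHT (median −0.12), and 6 fell on adding 3DA while the other 12 were not called (median −0.21). GPX3, a secreted peroxidase, fell at both steps, from 10.3 ± 1.52 to 3.53 ± 0.739 and 1.90 ± 0.227 CPM, with only 27 to 127 reads per library. GPX4, which reduces lipid peroxides, also fell at both steps, from 328 ± 23.9 to 265 ± 14.0 and 212 ± 21.7 CPM. GSTO1 rose with 4OHT (log2 fold change 1.0, SE 0.073), and MGST2 had the largest fall with 3DA (−1.29, SE 0.21, at 43 to 132 reads per library). Transferases of the GSTM group are related in sequence and can share reads, so their counts are uncertain.

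Of 21 tested thioredoxin, peroxiredoxin and related genes, 9 rose and 5 fell with 4OHT (median 0.13), and 4 rose and 7 fell on adding 3DA (median −0.035). TXN, thioredoxin itself, went from 816 ± 108 to 1195 ± 161 and back to 773 ± 96.3 CPM. PRDX1, a cytosolic peroxiredoxin, went from 1069.8 ± 80.9 to 1573 ± 111 and 1080.3 ± 129 CPM. For these genes the libraries with both agents overlapped those with DMSO, and the log2 fold changes between those groups were −0.0795 and 0.0139 (neither called; that of PRDX1 was below 0 in 5 other settings). The largest change with 4OHT was that of SESN3 (−1.09, at 25 to 111 reads per library), followed by the glutaredoxin GLRX (0.73). On adding 3DA it was that of the methionine sulfoxide reductase MSRB2 (−0.91, at 25 to 83 reads per library). The call of MSRB2 ended without 4OHT library 22 (−0.58).

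Of 16 tested genes of NADPH supply, 5 rose and 6 fell with 4OHT (median −0.13), and 3 rose and 1 fell on adding 3DA (median 0.0047). The shares that rose, 31.2% and 18.8% of the list, were near those of all genes (26.5% and 14.4%). The shares that fell were 37.5% and 6.25% of the list, against 25.5% and 12.4% of all genes. IDH2, the mitochondrial NADP-dependent isocitrate dehydrogenase, fell from 108 ± 3.75 to 33.3 ± 1.99 CPM with 4OHT and was at 44.9 ± 2.88 CPM with 4OHT+3DA, with no overlap among the 3 groups. NNT, a mitochondrial transhydrogenase, fell by 0.83 on the log2 scale with 4OHT.

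Of 10 haem and ferritin genes, 4 rose and 3 fell with 4OHT (median 0.29), and 1 rose and 5 fell on adding 3DA (median −0.19). The light ferritin chain FTL went from 10786 ± 785 to 16257 ± 1324 CPM with 4OHT and to 8891 ± 778 CPM with 4OHT+3DA, below DMSO by a log2 fold change of −0.28 (SE 0.071; edgeR adjusted p = 0.00272). The heavy chain FTH1 went from 635 ± 36.0 to 968 ± 59.3 and 596 ± 67.3 CPM. Both have many processed pseudogenes that can take reads. ALAS1, which starts haem synthesis, rose with 4OHT (1.37, SE 0.070) and stayed 1.06 above DMSO with 3DA. PIR, a known NRF2 target, fell by 1.08 on the log2 scale with 4OHT.

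Carbonyl and quinone detoxification genes were 10 higher and 4 lower of 22 tested with 4OHT (median 0.13), and 2 higher and 10 lower on adding 3DA (median −0.28). AKR1B10, an aldo-keto reductase, had a log2 fold change of 1.51 with 4OHT (SE 0.21) and 1.52 between 4OHT+3DA and DMSO. It had only 28 to 165 reads per library. The carbonyl reductase CBR3 fell with 4OHT (−1.29, SE 0.18). The largest falls with 3DA were those of AKR1C3 (−0.96, SE 0.25) and the aldehyde dehydrogenase ALDH3A2 (−0.93, SE 0.13). AKR1C3 had only 19 to 60 reads per library, and AKR1C genes are close copies that can share reads.

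Other enzymes of superoxide and peroxide were 5 higher and 2 lower of 12 tested with 4OHT (median 0.071), and 5 fell on adding 3DA while the other 7 were not called (median −0.15). RAC2, a small GTPase, went from 34.6 ± 1.6 to 89.7 ± 5.13 CPM with 4OHT. NOX4, an oxidase that releases hydrogen peroxide, rose by 0.83 on the log2 scale (SE 0.18). XDH, xanthine dehydrogenase, went from 3.09 ± 1.02 to 7.88 ± 1.23 CPM and back to 2.94 ± 0.624 CPM with 4OHT+3DA, at 19 to 126 reads per library. Catalase, CAT, fell with 4OHT (−0.27, SE 0.079), and extracellular SOD3, at 0 to 11 reads per library, was not tested.

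**Figure D3:**
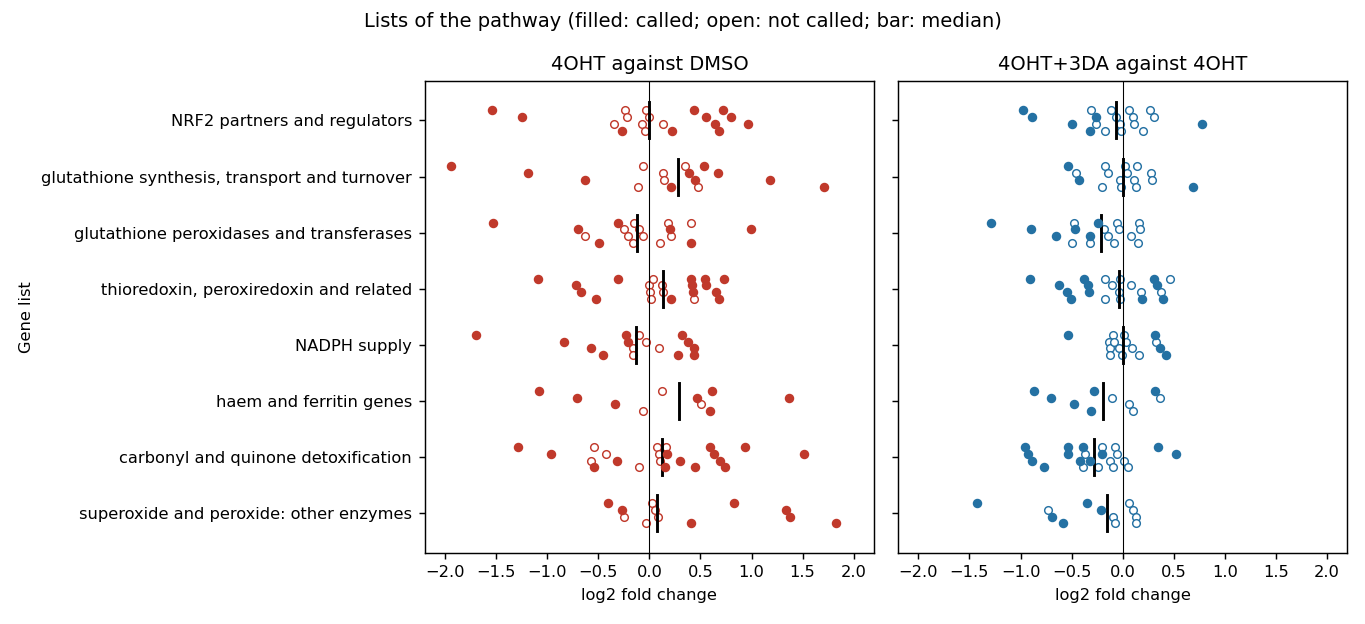
Log2 fold changes of the tested genes of the 8 pathway lists for 4OHT against DMSO (left) and 4OHT+3DA against 4OHT (right), filled where called, with the list median as a bar. Of 22 tested genes of carbonyl and quinone detoxification, 10 (45.5%) were called above 0 and 4 (18.2%) below 0 on the left. On the right 2 (9.09%) were above and 10 (45.5%) below. The list of NADPH supply had 5 above and 6 below on the left, and 3 above and 1 below on the right. Of all tested genes, 26.5% were called higher and 25.5% lower on the left, and 14.4% and 12.4% on the right.

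**Figure D4:**
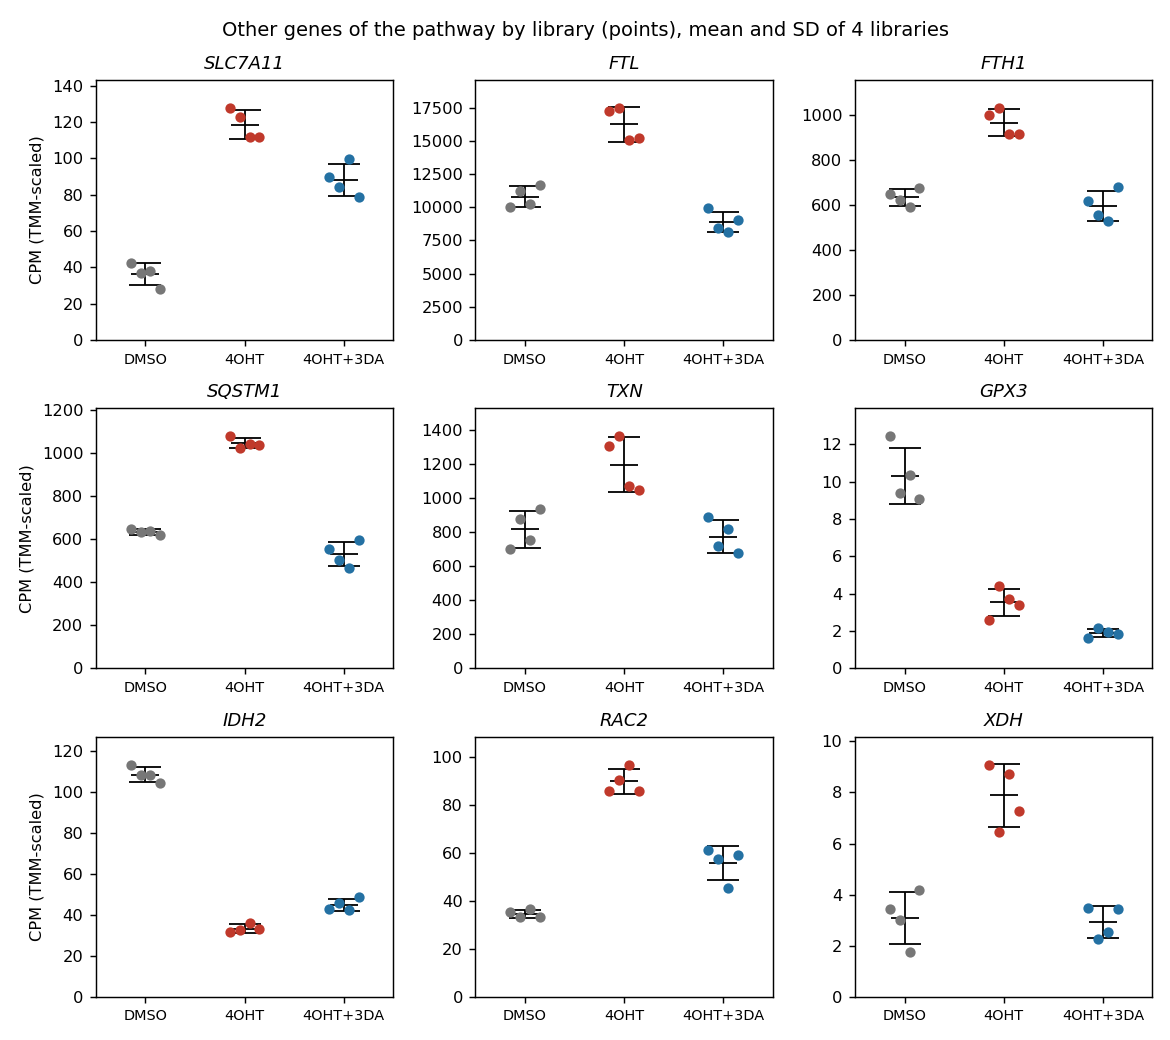
CPM (linear axis from 0) of 9 other genes of the pathway in each library, with mean and SD of each group of 4. FTL, FTH1, SQSTM1, TXN and XDH peak with 4OHT, SLC7A11 and RAC2 stay above DMSO on average with 3DA, and GPX3 and IDH2 are highest with DMSO.

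The genes most like each of 3 members were ranked by Pearson's r of log2 CPM over the 12 libraries, a description in which the points share their groups and the size of a change does not count. For NQO1 these were FTL (r = 0.982), ANKRD1 (0.979), ANXA1 (0.972), TUBB2A (0.969) and CPPED1 (0.967), and 13 genes exceeded 0.95. For HMOX1 they were TOR1A (r = 0.993), M6PR (0.992), UPP1 (0.991), CTSK (0.990) and VPS26C (0.990), and 278 genes exceeded 0.95. For SOD2 they were TM4SF1 (r = 0.961), PRSS23 (0.955), DTNA (0.955), ENSG00000261069, which has no symbol (0.953), and CLIP1 (0.951), and 5 genes exceeded 0.95. The pattern of NQO1, with its lowest values after 3DA, was also seen in ANKRD1, at 3.32, 8.91 and 1.31 CPM in the 3 groups. TM4SF1, like SOD2, was lowest with 3DA, at 407, 379 and 244 CPM.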

How the data were processed

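RNA was measured in 12 libraries, prepared, per the labels' protocols, by Smart-Seq2 and Nextera XT. The authors deposited raw counts of reads per gene, not normalised. The submitters' processing notes name featureCounts 1.18.0, TopHat2 2.0.11, CASAVA 1.8.2 and the builds GRCh37 and hg19. For filters, strand setting and multiply matching reads the sources used here give nothing. The libraries carry no molecular identifiers, and total reads were 9451160 to 19291493.

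Samples were grouped by their titles. Symbols came from a table of gene names, and for SOD2, whose symbol has moved to another identifier, from GENCODE 29. Of 201 list entries 199 were matched, and SRXN1 and GSTT1 were not. The test was run in R 4.3.3 with edgeR 4.0.16: filterByExpr with a minimum count of 10, TMM factors, and 1 quasi-likelihood fit of all 12 libraries with 9 residual degrees of freedom, adjusted by Benjamini-Hochberg over 13248 genes at 0.05. The SE is the log2 fold change divided by the square root of F. A prior count of 2 was used for log2 CPM. Replicate pairs had chi-square values of 3.16 to 42.6 per degree of freedom. Separate cultures are not stated for replicates, so p-values measure sample spread alone and that spread may be technical.

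Alternatives were DESeq2 1.42.0, library totals, RLE factors, an unfiltered table, the 8 libraries compared, and each library left out. The steps were tested on simulated counts. Named were the 9 genes, 14 fixed pathway genes and the 2 largest called changes of each list per comparison. The text gives those that describe a list. Results of some of these genes are not reported here. The members and lists were chosen with earlier results of these data known. Lists comprised NRF2 partners, glutathione synthesis, glutathione enzymes, thioredoxin, NADPH, haem and ferritin, detoxification, superoxide enzymes, and fibroblast, epithelial, endothelial and immune markers.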

Additional observations from a re-analysis of the deposited data

Results flagged for a closer look

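In 12 of 147 sets of 4 libraries (49 genes in 3 groups), 1 library lay far from the other 3, with a gap to its nearest neighbour above Dixon's 95% critical value as a share of the range. Chance flags about 1 in 20 such sets. Among the 9 genes, this was SOD2 at 134 CPM in 4OHT+3DA library 31, against 115 to 118 CPM. DMSO library 17 was low for CHAC2 (8.33 CPM), AOX1 (37.5 CPM) and AKR1C3 (3.33 CPM). 4OHT+3DA library 29 was high for PRDX1 (1271 CPM) and MAFG (10.9 CPM). 4OHT library 22 was high for PGLS (68.8 CPM) and GPX7 (3.35 CPM), and DMSO library 20 was high for GPX7 (4.92 CPM). NOX4 was low in 4OHT library 23 (8.91 CPM). SOD3, which was not tested, was at 0 CPM in 4OHT library 21 and at 0.345 CPM in 4OHT+3DA library 32.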

How the results depend on the processing

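No paired analysis was possible because the groups share no library number. Of the recomputed fold changes of the 9 genes, 438 kept direction and call, 13 gained a call, 5 lost it and 3 changed sign. With library totals the median of all genes shifted to −0.167 for 4OHT against DMSO, and calls split into 2385 higher and 4727 lower (3511 and 3378 with TMM), 2535 and 1207 on adding 3DA (1909 and 1649) and 2798 and 4035 for 4OHT+3DA against DMSO (3572 and 3253). Of the 9 genes, 7 were called for 4OHT against DMSO in the fit of 8 libraries, and 4 to 7 when 1 library was left out (7 without 4OHT+3DA library 31). Of all genes 59.5% were called in the fit of 8 libraries, 57.0% without library 31 and 46.9% to 53.5% without any 1 of the others. On adding 3DA, 4 to 5 of the 9 genes were called in these fits, and 8 to 9 between 4OHT+3DA and DMSO. The shares of all genes called were 20.1% to 29.5% and 46.3% to 52.1%. SOD2, not called for 4OHT against DMSO, changed sign with library totals (−0.14) and without DMSO library 17 (−0.0027) or 4OHT library 23 (−0.0058), with a range of −0.0058 to 0.055 when 1 library was left out. Between 4OHT+3DA and DMSO, PRDX1 changed sign with library totals (−0.083), in the fit of 8 libraries (−0.0072) and without DMSO library 17 (−0.019) or 19 (−0.014) or 4OHT+3DA library 29 (−0.070), with a range of −0.070 to 0.052, and MAFF with library totals (−0.022). WTAP, examined after seeing the data, changed sign there without library 31 (−0.010), with a range of −0.010 to 0.38 when 1 library was left out. The causes were not tested. Depth limits GCLC most among the 9 genes, at 59 to 183 reads per library.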

Other observations

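Further members of the lists are given here. The sestrins, a family of stress proteins, differed in direction with 4OHT. SESN2 had a log2 fold change of 0.68 (called), SESN1 of 0.13 (not called) and SESN3, as above, of −1.09 (called). The biliverdin reductases went opposite ways between 4OHT+3DA and DMSO: BLVRB was lower (−0.82) and BLVRA higher (0.25), both called and without overlap between the groups. On adding 3DA they were at −0.48 and 0.32 (both called). MAFK, a small MAF gene, had a log2 fold change of 0.68 with 4OHT (SE 0.28; edgeR adjusted p = 0.0484), with groups that overlapped, and was not run under other settings.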
